A study of Mus musculus with 8 samples.

Results

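H3K36me3 ChIP-seq of mouse embryonic stem cells gave 3040 peaks after doxycycline-induced knockdown of Setd2. Of the 3039 on chromosomes 1 to 19, 814 shared no base pair with any peak of the control cells, which is 26.8% (exact Clopper-Pearson 95% interval 25.2 to 28.4). These 814 regions, called knockdown-only peaks below, are described here, out of 33674 peaks in both lists together. They were chosen by the 2 peak lists themselves, so their absence from the control list is how they were picked and was not tested. The other 2225 autosomal knockdown peaks, called shared knockdown peaks, and the 30499 autosomal control peaks serve for comparison.

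Knockdown cells received 1 µg/ml doxycycline for 4 days, and control cells received none. All cells, controls included, carried the inducible knockdown, and all grew without feeders as spheres in medium with 1 µM PD0325901 (a MEK inhibitor), 3 µM CHIR99021 (a GSK3 inhibitor) and 1000 U/ml LIF. The labels do not name the hairpin or the clone, and they do not say whether the replicates were separate cultures. The 8 libraries are an H3K36me3 ChIP and an input in each condition with 2 replicates each, but the authors called peaks over merged replicates, so 1 list stands for each condition. There is no replicate spread and no test between conditions, and all intervals cover counting error only, since neither tags nor neighbouring peaks are independent.

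H3K36me3 is placed on nucleosomes mostly by SETD2, which travels with elongating RNA polymerase II. The mark therefore covers the bodies of transcribed genes, usually most heavily toward the 3′ end, and is sparse at promoters and between genes. NSD and ASH1L enzymes write the lower methylation states of the same lysine. Some KRAB zinc finger gene clusters are a known exception to the simple division of active and silent marks, since H3K36me3 and the silencing mark H3K9me3 can lie together there.

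The knockdown ChIP libraries kept 29416169 tags after duplicate removal, against 36244210 in the control ChIP libraries, and duplicates were 23.9% of tags in knockdown and 14.7% in control. The genome-wide mean was thus 15.7 kept tags per kb in knockdown and 19.4 in control. The 10 embryonic stem cell markers all carried control peaks, over a median of 81.8% of their length, whereas 0 of 9 fibroblast, 0 of 6 primitive endoderm and 2 of 8 mesodermal and neural markers did. None of the 33 markers held a knockdown-only peak, beside 1.11% of all autosomal coding genes. With so few markers this says little, and the rule leaves little room for such a peak in the stem cell markers.

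Few knockdown-only peaks touched a gene start. Of the 814 peaks, 13 (1.60%, 0.853 to 2.72) shared base pairs with a RefSeq promoter window, which runs from 250 bases before to 50 bases after a start, against 29 shared knockdown peaks (1.30%, 0.875 to 1.87) and 655 control peaks (2.15%). A whole window lay under a peak for 6 genes, and 4 of these windows are printed to show what kind of start was covered. The sequences are from RefSeq, GRCm38.p6 (the assembly of mm10), 5′ to 3′ on the gene's strand, with each CpG in capitals.
Zfp982 (chr4:147492167-147492466, plus strand): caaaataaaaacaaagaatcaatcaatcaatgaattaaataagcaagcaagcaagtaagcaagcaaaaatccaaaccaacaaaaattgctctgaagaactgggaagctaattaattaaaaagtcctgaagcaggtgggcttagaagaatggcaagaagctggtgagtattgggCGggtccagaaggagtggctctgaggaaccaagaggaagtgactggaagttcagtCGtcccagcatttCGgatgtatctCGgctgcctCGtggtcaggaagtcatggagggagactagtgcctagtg
Gm36079 (chr13:120027330-120027629, minus strand): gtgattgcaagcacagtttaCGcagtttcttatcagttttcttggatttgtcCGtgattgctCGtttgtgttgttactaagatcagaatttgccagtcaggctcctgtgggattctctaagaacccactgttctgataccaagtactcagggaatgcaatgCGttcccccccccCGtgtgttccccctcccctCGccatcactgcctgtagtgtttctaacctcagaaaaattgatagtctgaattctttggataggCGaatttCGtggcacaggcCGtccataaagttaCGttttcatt
Cyp2c67 (chr19:39648993-39649292, minus strand): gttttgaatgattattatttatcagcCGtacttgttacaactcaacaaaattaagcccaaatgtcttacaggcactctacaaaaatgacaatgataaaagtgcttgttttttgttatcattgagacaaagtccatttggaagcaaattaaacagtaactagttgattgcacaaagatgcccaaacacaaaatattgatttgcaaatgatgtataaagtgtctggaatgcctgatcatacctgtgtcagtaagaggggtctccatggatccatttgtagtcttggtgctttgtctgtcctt
Hcar1 (chr5:123879954-123880253, minus strand): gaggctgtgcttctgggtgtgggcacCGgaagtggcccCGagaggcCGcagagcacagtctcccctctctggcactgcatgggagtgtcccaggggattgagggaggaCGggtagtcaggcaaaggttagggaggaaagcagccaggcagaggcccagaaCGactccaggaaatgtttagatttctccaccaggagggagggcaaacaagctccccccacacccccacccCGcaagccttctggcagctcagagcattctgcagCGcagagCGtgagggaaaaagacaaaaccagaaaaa
The 4 windows held 1 to 10 CpG each. Cyp2c67, a cytochrome P450 gene, had 1 CpG and 35.3% GC, Zfp982 had 5 and 44%, the lactate receptor gene Hcar1 had 8 and 59.7%, and the predicted gene Gm36079 had 10 and 46%. The medians over the 31396 autosomal windows were 7 CpG and 53% GC, so the 4 windows lay on both sides of them. The sequence TATAAA, searched on both strands, was found in the Cyp2c67 window and in 13.6% of all windows, and CCAAT, likewise on both strands, in the Zfp982 window and in 37.3% of all. The peak over the Zfp982 window, well inside the annotated gene, held 352 tags (55.6 per kb). The peaks over Gm36079, Cyp2c67 and Hcar1 held 47, 69 and 89 tags, or 42.8, 40.2 and 36.5 per kb. The 2 other windows belong to Trim52 and the lncRNA gene LOC108167852.

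In strength the knockdown-only peaks were modest and close to one another. They had a median of 35.5 tags per kb, with quartiles of 34.3 and 37.1, against 37.2 with quartiles of 35.3 and 40.0 in shared knockdown peaks. Densities were divided by the genome-wide mean of their own libraries. That allows for unequal depth, but not for unequal shares of tags in peaks. The median density was 2.26 times the mean in knockdown-only peaks, 2.37 in shared knockdown peaks and 2.38 in control peaks. A density of 2.5 times the mean or more was reached by 86 knockdown-only peaks (10.6%, 8.54 to 12.9), by 662 shared knockdown peaks (29.8%, 27.9 to 31.7) and by 39.6% of control peaks. These values mix peak lengths. Among peaks of up to 2000 bp, the medians were 2.25 in knockdown-only, 2.31 in shared knockdown and 2.14 in control peaks. The order against control peaks thus depends on length. The middle of the knockdown-only distribution was narrow, and its upper tail held few peaks.

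Knockdown-only peaks were also shorter. Their median length was 1401 bp, against 1678 bp in shared knockdown peaks and 2454 bp in control peaks. Peaks above 2000 bp made up 11.4% (93) of knockdown-only peaks, 32.2% (717) of shared knockdown peaks and 63.8% of control peaks. The score given by the authors' caller (a log10 scale of its p, with a cutoff at 50) had a median of 66.5 in knockdown-only peaks and 83.4 in shared knockdown peaks. A longer peak is both more likely to meet a control peak by 1 bp and more likely to score high, so differences in length and score can come from the rule itself. Together the knockdown-only peaks covered 1.27 Mb and held 47309 tags, or 0.161% of the kept tags of the knockdown ChIP.

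**Figure D1:**
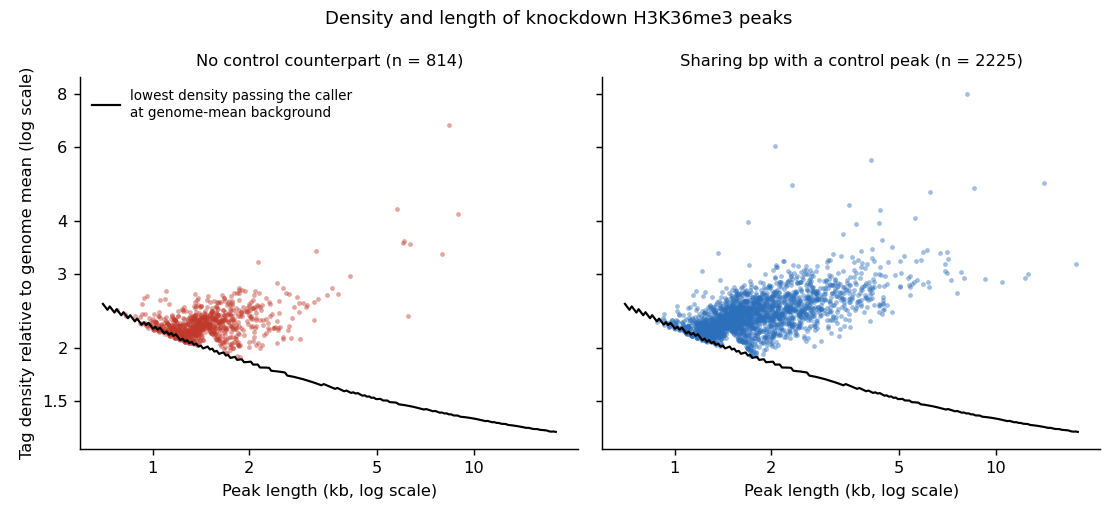
Tag density relative to the genome-wide mean of the same libraries against peak length in kb, both on log axes, for the 814 knockdown-only peaks (left) and the 2225 shared knockdown peaks (right), 1 point per peak. The line is the lowest density that passes the caller at a background equal to the mean, and most knockdown-only peaks sit just above it, with medians of 2.26 times the mean and 1401 bp.

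The distance from a knockdown-only peak to the nearest control peak spanned from 1 bp to 3604762 bp. The median gap was 25714 bp. Within 500 bp of a control peak lay 40 peaks (4.91%, 3.53 to 6.63), and a further 18 lay up to 1000 bp away and 94 up to 5000 bp. The largest class, 367 peaks (45.1%, 41.6 to 48.6), lay between 5000 and 50000 bp away. Beyond that, 263 peaks (32.3%, 29.1 to 35.6) lay up to 500000 bp away and 32 peaks (3.93%, 2.70 to 5.50) farther still. The control-free stretches that surround them, as the rule requires, had a median length of 183724 bp over the 808 with a control peak on both sides.

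**Figure D2:**
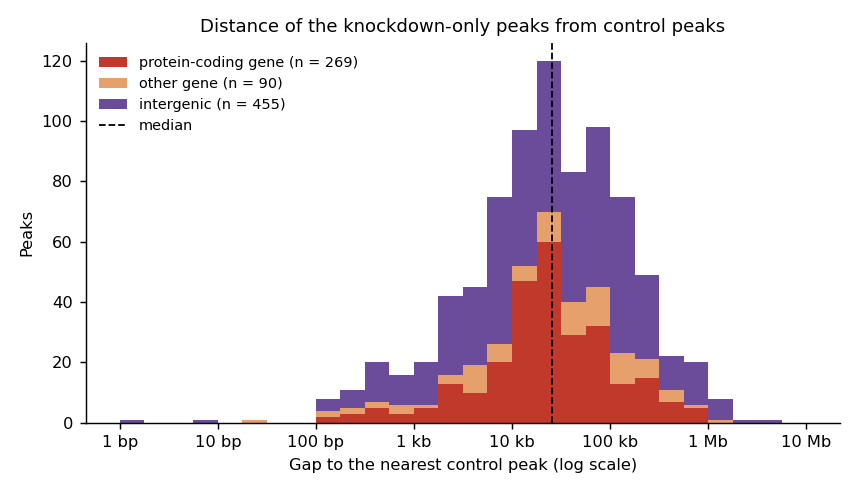
Number of knockdown-only peaks by distance to the nearest control peak (log axis), stacked by place in coding genes, other genes and between genes. The dashed line is the median of 25714 bp. The largest gap is 738220 bp in coding genes and 3604762 bp between genes.

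At the boundary of the rule, the 5 peaks just inside it had 34.1 to 37.2 tags per kb and the 5 just outside it 31.2 to 35.5. Just inside it, chr16:73654947-73656555, 235420 bp from Robo2 (an axon guidance receptor gene), ended 1 bp from a control peak. The peak at chr13:67610983-67612330, 429 bp from Zfp729a, was 7 bp away, and chr8:63761981-63763691, in the lncRNA gene Gm35424, was 22 bp away. Gaps of 103 and 131 bp belonged to chr18:18852517-18853887 and to chr9:122282066-122283210 in Ano10, an anoctamin gene. Just outside it, chr3:15060537-15062112 near the carbonic anhydrase gene Car2 shared 6 bp with a control peak. Next came chr13:112189652-112191544 near Ankrd55 with 18 bp, chr10:22345126-22346474 near Raet1d with 21 bp, chr18:18973903-18975519 near Dsc3 with 44 bp and chr2:87484051-87485616 near Pramel7 with 47 bp.

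At the other extreme, 3 of the 5 most distant peaks lay more than 100000 bp from any coding gene. The most distant, chr2:98031797-98033022, was 400124 bp from Lrrc4c, a synaptic adhesion gene, and had 34.3 tags per kb. Next were chr16:53674636-53676036, 2133988 bp from a control peak and 1221554 bp from the cell adhesion gene Alcam, and chr18:88838414-88840192, 1690035 bp from a control peak but 24976 bp from Socs6, a suppressor of cytokine signalling. The last of them were chr16:50479942-50481637 in the lncRNA gene Gm32231, 47475 bp from Bbx, with a gap of 1465163 bp, and chr1:112222729-112224223, 357676 bp from Dsel, with a gap of 1427431 bp.

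By place, most knockdown-only peaks fell outside protein-coding genes. Their midpoints were intergenic in 455 cases (55.9%, 52.4 to 59.3), against 42.2% (40.2 to 44.3) of shared knockdown peaks and 13.6% of control peaks. A protein-coding gene held 269 (33.0%, 29.8 to 36.4), against 50.2% (48.1 to 52.3) of shared knockdown peaks and 83.6% of control peaks. The other 90 (11.1%, 8.98 to 13.4) lay in other annotated genes. Of the 90, 76 had their midpoint in an lncRNA gene. Control peaks lie mostly in coding genes, and the rule removes knockdown peaks that meet them. Differences in place can therefore come from the rule itself. Strength did not separate these places, since the median density was 2.27 times the mean in coding genes, 2.23 in other genes and 2.25 between genes. The median gap to a control peak was 24201 bp in coding genes, 34029.5 bp in other genes and 26878 bp between genes.

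Within coding genes of known direction, the 212 knockdown-only peaks reached closer to the 5′ end than the 879 shared knockdown peaks. With each gene divided into 5 equal bins, the bin at the 5′ end held 17.5% (12.6 to 23.2) of knockdown-only peaks, 8.65% (6.87 to 10.7) of shared knockdown peaks and 11.3% of control peaks. The bin at the 3′ end held 26.9% (21.0 to 33.4) of knockdown-only peaks, 30.9% (27.9 to 34.1) of shared knockdown peaks and 29.4% of control peaks. The median position was 57.1% of the way along the gene for knockdown-only peaks, 68.0% for shared knockdown peaks and 62.9% for control peaks. Control peaks lie more toward the 3′ end, and the rule removes knockdown peaks that meet them, so this difference too can come from the rule.

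**Figure D3:**
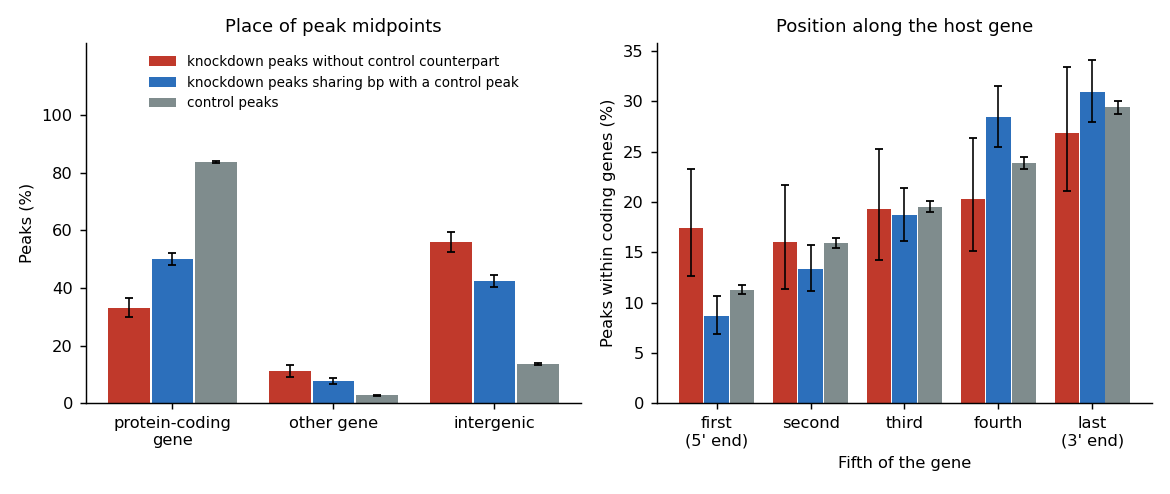
Left, percent of peak midpoints in protein-coding genes, in other genes and between genes. Right, percent of the peaks within coding genes in each of 5 equal bins from the 5′ to the 3′ end. Bars are knockdown-only, shared knockdown and control peaks with exact 95% intervals, and 55.9% of knockdown-only peaks are intergenic against 13.6% of control peaks.

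Intergenic knockdown-only peaks had a median distance of 36268 bp to the nearest coding gene, against 29760 bp for intergenic shared knockdown peaks and 16542.5 bp for intergenic control peaks. More than 100000 bp from any coding gene lay 131 of the 455 (28.8%, 24.7 to 33.2), against 22.1% (19.5 to 24.9) of the shared and 17.0% of the control peaks between genes. The nearest coding genes numbered 401, so few were named more than once. Grm4 (a metabotropic glutamate receptor), Snx16 (a sorting nexin) and Wac (an adaptor for histone H2B ubiquitination) were each nearest to 4 peaks. Amd2, Grin2a, Lemd2, Pkdcc and Ythdf3 were each nearest to 3.

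Knockdown-only peaks touched 230 of 20665 autosomal protein-coding genes (1.11%) and had their midpoint in 223 (1.08%), against 1130 (5.47%) touched by any knockdown peak and 9741 (47.1%) by a control peak. No control peak touched 107 of the 230 (0.518% of all coding genes). Most host genes held 1 peak (192 of 223), 23 held 2, and Hspg2 held the most, with 6. Host genes were long, with a median of 86806 bp, against 25829 bp for genes with a control peak and 17491 bp for all coding genes. A long gene is more readily touched by any peak. Control peaks covered a median of 0.581% of the host genes, 38.1% of the genes that hold a control peak and 0% of all coding genes. The rule bars a knockdown-only peak from any stretch under a control peak, so low coverage of host genes can come from the rule itself. By peak, 118 of the 269 in coding genes (43.9%) had no control peak anywhere in the gene, 112 had one on 1 side and 39 on both sides.

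Among the 15 genes with the most base pairs under knockdown-only peaks, 5 had no control peak: Top2a, Dync1h1, Zfp981, Ticrr and Cct3. Top2a, the DNA topoisomerase that untangles replicated chromosomes, held 4 peaks with 134, 71, 40 and 115 tags (41.0, 39.0, 35.0 and 40.3 per kb) over 29.1% of the gene. Its nearest control peak was 18119 bp beyond the gene, and the control-free stretch around it measured 170342 bp. Cct3, a subunit of the chaperonin that folds actin and tubulin, held 3 peaks of 36.7, 37.4 and 33.7 tags per kb over 21.4% of the gene, with a control peak 4258 bp outside it. In each of these genes the peaks differed little in density.

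Ticrr, which helps to start DNA replication, held 4 peaks of 35.2, 34.4, 34.3 and 34.8 tags per kb over 15.2% of its length. Dync1h1, the heavy chain of cytoplasmic dynein, held 3 peaks of 35.3, 41.5 and 37.8 tags per kb over 9.93%. Their control-free stretches measured 67872 bp and 133512 bp. Zfp981 held 1 peak of 67.1 tags per kb, which also lies within the overlapping Zfp993, so these 2 genes cannot be told apart by it.

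Other top genes carried control peaks elsewhere along their bodies. Hspg2, which encodes the basement membrane proteoglycan perlecan, held 6 knockdown-only peaks of 34.7 to 41.2 tags per kb (11.5% of the gene) and control peaks over 9.01%. All 6 fell in 1 control-free stretch of 66413 bp. Myh9, the heavy chain of a non-muscle myosin, held 5 of 31.9 to 40.1 tags per kb (10.2%) toward its 3′ end, and control peaks over 20.2% nearer its 5′ end. Ubr4, a ubiquitin ligase of the N-degron pathway, held 4 of 35.1 to 39.8 tags per kb (5.47%), with control peaks over 2.84%. No control peak lay between the knockdown-only peaks of any of these 3 genes.

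**Figure D4:**
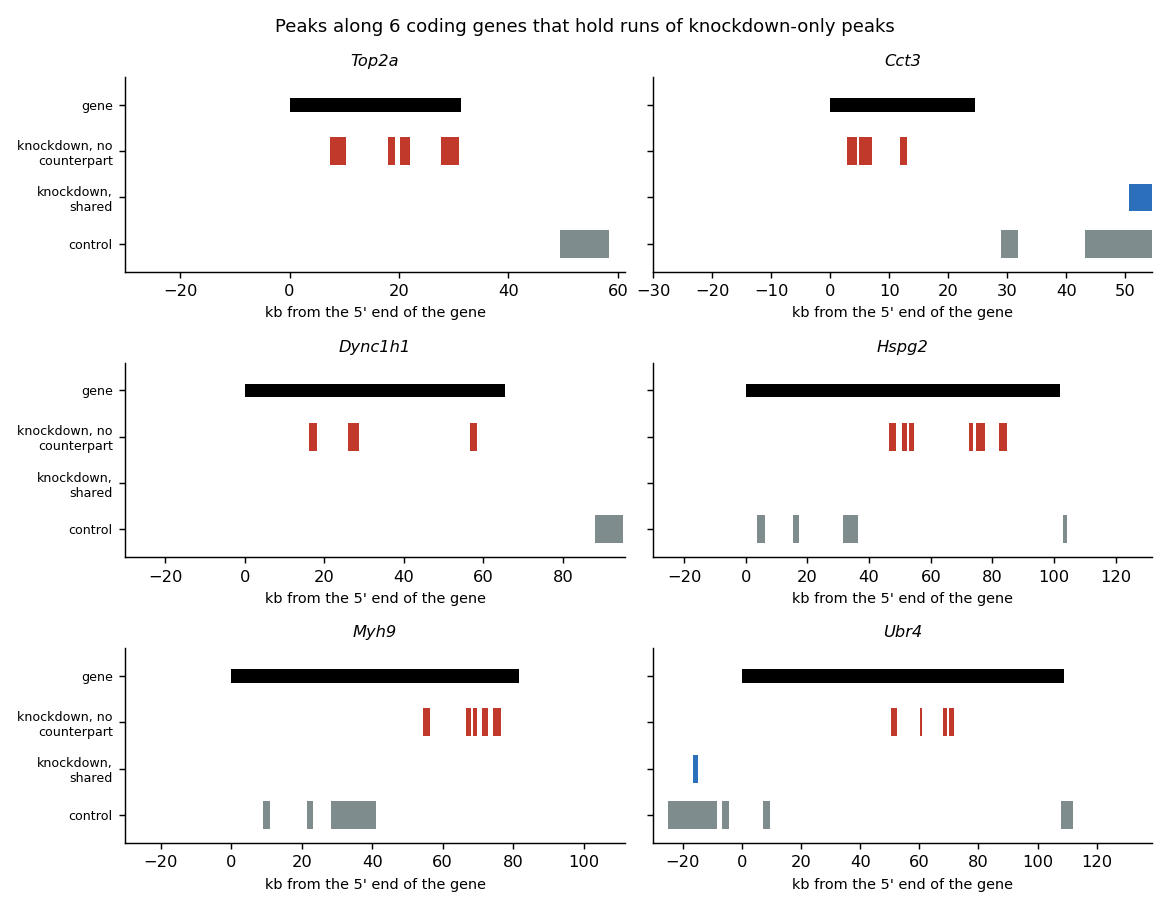
Knockdown-only, shared knockdown and control peaks along Top2a, Cct3, Dync1h1, Hspg2, Myh9 and Ubr4, in kb from the 5′ end of each gene. Top2a, Cct3 and Dync1h1 hold no control peak, and in Hspg2, Myh9 and Ubr4 the control peaks lie apart from the knockdown-only peaks.

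The remaining genes with many covered bases or high-scoring peaks held 1 or 2 peaks each. Son, a splicing cofactor, held a peak of 159 tags with a score of 253.14 over 12.0% of the gene, with control peaks over 30.6%. Mms19, which delivers iron-sulphur clusters to DNA-handling enzymes, had peaks over 10.5% of its length and control peaks over 4.71%. Pdcd11, a ribosomal RNA processing factor, had 12.0% under knockdown-only peaks and 19.7% under control peaks. Fn1, the fibronectin gene, had 7.67% under knockdown-only peaks and 8.67% under control peaks, and its 2 peaks reached 37.2 and 40.5 tags per kb. Heatr1, a factor of ribosomal RNA synthesis, held a peak with a score of 198.31, and Spata16, a spermatogenesis gene with no control peak, one of 111 tags with a score of 200.09.

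High scores were not limited to genes. The intergenic peak at chr17:93477800-93481282, 271258 bp from Adcyap1 (a neuropeptide gene), scored 214.01 and lay 17586 bp from a control peak. The peak at chr11:16346737-16349751, 62185 bp from Vstm2a, scored 186.57.

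Of 18 gene lists, most held few or no genes with a knockdown-only peak, beside 1.11% of all coding genes. The splicing and RNA-binding list had 4 of 79: Son, Dhx9 (an RNA helicase, 10.9% of the gene), Hnrnpul1 (8.21%) and Sf3b3 (a subunit of the U2 snRNP, 4.09%). Of these, Dhx9, Hnrnpul1 and Sf3b3 were among the 7 genes of the list with no control peak. The cytoskeleton and motor list had 2 of 18, Myh9 and Dync1h1. Single genes were touched in the lists of translation factors (Eif3l of 71, 9.10%), chaperones (Cct3 of 18), mitosis and chromosome structure (Top2a of 19), KRAB zinc finger partners and H3K9 methylation (Dnmt1 of 15, 2.92%) and H3K36 methyltransferases (Nsd1 of 8, 1.54%). Eif3l, a translation initiation subunit, and Dnmt1, the maintenance DNA methyltransferase, had no control peak, whereas Nsd1 had control peaks over 34.4% of its length. With so few genes per list, these counts say nothing about a preference for any list.

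No gene with a knockdown-only peak was found among 29 pluripotency genes, 24 genes of 2-cell-like cells, 85 ribosomal protein genes, 1458 olfactory and vomeronasal receptor genes or 77 histone genes. The same held for the lists of 10 fibroblast, 10 primitive endoderm and 10 mesodermal and neural marker genes. Of these lists, pluripotency genes (27 of 29) and ribosomal protein genes (79 of 85) nearly all carried control peaks, while 6 receptor genes and 4 histone genes did. Predicted and clone-named genes had 5 of 1358 and small RNA genes 4 of 3782. The zinc finger list had 10 of 458 (2.18%), led by Zfp982, Zfp985, Zfp981 and Zfp993, and 2 of the 121 zinc finger genes with no control peak were among them.

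A stretch of 2.18 Mb at chr4:145412232-147587763, which holds the zinc finger genes Zfp982, Zfp985, Zfp981 and Zfp993, stood out for density and was chosen after the values were seen. It contained 11 knockdown-only, 13 shared knockdown and 33 control peaks. Zfp982 had 31.8% of its length under 3 knockdown-only peaks of 419, 582 and 352 tags (52.5, 65.3 and 55.6 per kb), and 8.86% under control peaks. The peaks of 419 and 352 tags, the second of them over the printed promoter window, are the 2 knockdown-only peaks that the authors' BED file, limited to an FDR of 5%, leaves out. Their deposited FDR is 5.19% and 16.7%, although their scores are the 2 highest of the 814. Zfp985 had 22.3% under knockdown-only peaks and 16.4% under control peaks. The densest of all 814 peaks, chr4:145443630-145452015 in the predicted gene Gm42346, held 893 tags (106 per kb). In all, 7 of the 10 densest peaks lay in this stretch, and the median density there was 3.34 times the mean in knockdown-only peaks, 3.30 in shared knockdown peaks and 3.73 in control peaks.

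The local background worked out for peaks there was also high at the median. A local background implied by each peak's tags, length and score was worked out, in multiples of the genome-wide mean. It is approximate, since 68 of the 814 peaks gave a value under 0.99. It is also not independent of density, since both use the same tags and length. The implied background was 1.81 at the median of the 11 knockdown-only peaks, 1.74 in the 13 shared knockdown peaks and 1.81 in the 33 control peaks of the stretch. Over all 814 peaks, 536 (65.8%, 62.5 to 69.1) had a background within 0.01 of the mean, against 53.1% of shared knockdown peaks. Only 12 exceeded 1.5, and 6 of these lay in the stretch. The Gm42346 peak had a background of 5.50 and a score of 90.47, lower than the 479.3 of the Zfp982 peak at 55.6 tags per kb with a background of 1.45. How far the background, or reads that match several zinc finger genes, bears on these peaks was not tested.

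**Figure D5:**
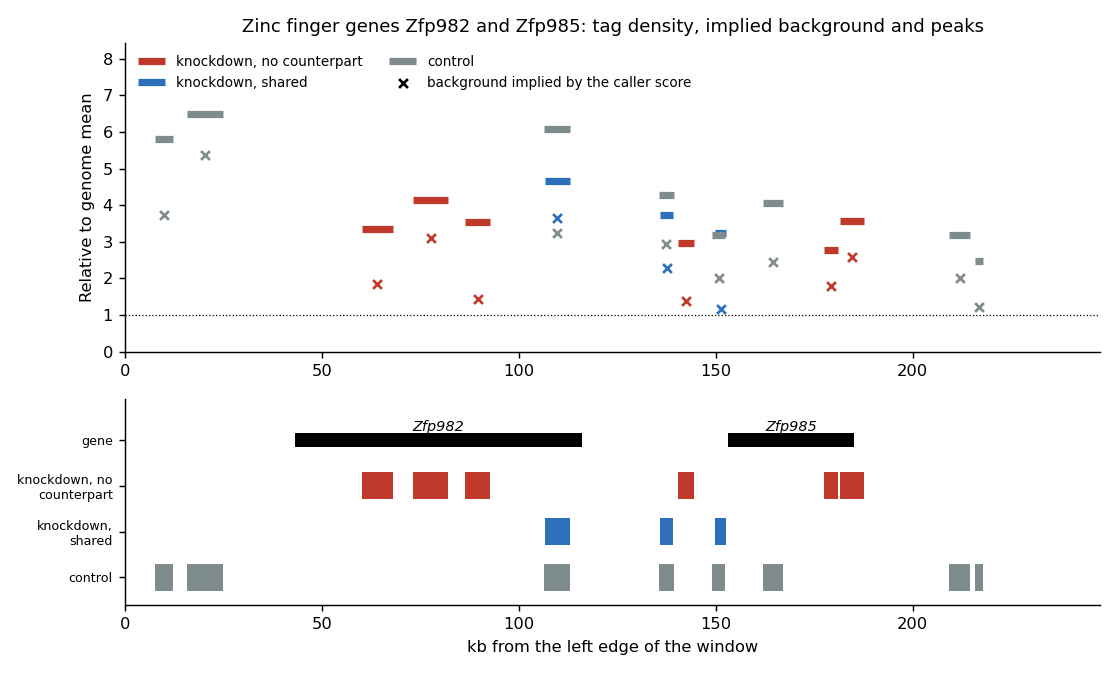
Window around Zfp982 and Zfp985, in kb from its left edge. Above, bars show the density of each knockdown-only, shared knockdown and control peak and crosses the background from the caller score, both relative to the genome-wide mean (dotted line at 1). Below, the same peaks lie along the genes, and the 6 knockdown-only peaks lie among control peaks, all 6 with backgrounds above the mean.

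Of the 10 densest peaks, 3 lay outside this stretch. Rest, the repressor of neuronal genes, held 1 peak of 172 tags (53.5 per kb) with a background of 2.02, 4061 bp from a control peak. A peak at chr1:88281834-88287833, 4189 bp from the centromere histone chaperone gene Hjurp, had 55.8 tags per kb with a background of 2.53. Zfp936 held 2 peaks, of which the denser had 50.3 tags per kb, with a background of 1.62 and control peaks on both sides within the gene. Among the 5 longest was chr16:35534241-35540483 (6243 bp, background 1.74), 670 bp from Sema5b.

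Most knockdown-only peaks stood alone. Another one lay within 50000 bp of 156 (19.2%, 16.5 to 22.0), and any other knockdown peak within 50000 bp of 291 (35.7%, 32.5 to 39.2). With gaps of up to 50000 bp, 658 were single, 55 pairs formed, and 10 runs of 3 or more held 46 peaks. In 8 of the 10 runs no control peak lay inside, namely those in Hspg2, Myh9, Top2a, Ubr4, Ticrr, Dync1h1 and Cct3 and the run from Atic (a purine synthesis enzyme) to Fn1. The run over Zfp982 and Zfp985 had 6 knockdown-only peaks among 3 shared knockdown and 4 control peaks. The largest run, 7 peaks at chr17:27222024-27406974, was intergenic between Lemd2, a nuclear envelope gene, and Grm4. This run had 7 shared knockdown and 11 control peaks inside, whose order was not examined. The densities of its 7 peaks were 2.26 to 2.75 times the mean, with backgrounds of 1.06 to 1.46.

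All chromosomes contributed, from 23 peaks on chromosome 19 to 62 on chromosome 4. As a share of the knockdown peaks of the chromosome they ranged between 21.1% on chromosome 2 and 32.3% on chromosome 3.

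Being called in 1 list and not in the other need not mean a large difference in density. With background at the genome-wide mean, regions of these lengths would be called in control at a median density of 1.93 times the control mean. In the knockdown libraries, with fewer kept tags, the level needed was higher, at a median of 2.03 times the knockdown mean. All 814 peaks exceeded the control level in knockdown, which follows from their being called there. They did so by a median factor of 1.17, with quartiles of 1.09 and 1.26, and 37 exceeded it by 1.5 times or more. Part of this factor is set by the higher level needed in knockdown. The knockdown and control means can also hold unequal shares of tags in peaks, which was not corrected for. What the control libraries held at these sites is not in the peak lists, so no fold change can be given. In control, the implied local background is known for called peaks only, so it does not show what was left uncalled. It was 1.00 at the median of control peaks up to 8000 bp, 1.53 in the 2305 control peaks of 8000 to 20000 bp and 2.64 in the 175 longer ones, where no peak had a density under 2.71 times the mean. Whether broad control signal over genes such as Top2a or Hspg2 was left uncalled was not tested.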

How the data were processed

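H3K36me3 ChIP and input libraries of knockdown and control cells, 2 replicates each, were grouped by the treatment and antibody in the labels. The submitters' processing notes name Bowtie 1.1.2, FastQC 0.11.5 and build mm10. For reads matching several places, the treatment was not given in the sources used here. MACS 1.4.2 was run by the authors, per the file headers, on merged replicates against merged inputs, with a p cutoff of 1e-05, 1 tag kept per position, an effective genome size of 1.87e+09 and local background over 1000 and 10000 bp. The deposited tables give the count of tags per peak (not normalized), a score of minus 10 times the log10 of p, a fold enrichment over background and an FDR in percent, all as the authors' caller made them.

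A peak shared a control peak at 1 bp or more. Relative density is tags per kb divided by kept tags per kb of effective genome. The local background was solved as the Poisson mean that gives the authors' score for a peak's tags and length, an approximation that need not be the value the caller used. The calculation was checked on simulated peaks whose scores were made with the same formula, so the check covers the arithmetic and not the caller's own background. Place went by peak midpoint, with RefSeq genes of GRCm38.p6, and strand came from the RefSeq promoter table, which covers 16457 of 20665 coding genes. Peaks inside overlapping genes count for each. No genome sequence was used, so GC content and repeats under the peaks were not analysed here, and promoter windows are shown instead. Intervals are exact Clopper-Pearson at 95%.

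Named peaks are the 10 highest-scoring, the 10 densest, the 5 longest, the 5 farthest from and the 5 nearest to a control peak, and the 5 with the fewest shared bp. Named genes are the 15 with the most bp under knockdown-only peaks (Gm and Rik symbols left out), the 5 such without a control peak, hosts or neighbours of named peaks, and list genes touched. Other genes in the runs, the genes nearest to 3 or more peaks, and the genes at promoter windows were added. The peaks, the 18 lists and the rules were chosen with earlier results of these data known. Python 3.11.15, NumPy 2.4.6, pandas 2.3.3, SciPy 1.17.1 and Matplotlib 3.10.9 were used.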

Additional observations from a re-analysis of the deposited data

How the results depend on the processing

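With other definitions of a counterpart, other score, FDR and gene limits, 31 of 70 recomputed values moved. These values are counts, medians and shares, so a reversal of sign could not occur. The intergenic share, reported as 55.9%, fell under 50% in some settings. The share in coding genes with a control peak, reported as 56.1%, did so with control peaks of score 100 or more. Including X and Y was also tried but could change nothing, since no such peak lies there. Requiring 50% reciprocal overlap gave 2130 peaks without counterpart (reported: 814), a median gap of 0 bp, 42.7% with another within 50000 bp, 39.3% intergenic, a median length of 1513 bp, 36.2 tags per kb and 89.6% in coding genes with a control peak. Knockdown peaks of score 100 or more left 89 peaks, with a gap of 17586 bp, 14.6% clustered, 48.3% intergenic, 2101 bp, 39.8 tags per kb, 64.1% with a control peak in the gene and 10 list genes (reported: 30). An FDR limit of 1% left 252, with 30541.5 bp, 3.17% clustered, 1197 bp and 34.3 tags per kb; this FDR is higher in high-scoring peaks, so the limit keeps low-scoring ones. Control peaks of score 100 or more gave 1165 peaks, a gap of 45293 bp, 27.8% clustered, 1441 bp, 35.7 tags per kb and 46.3% with a control peak in the gene. Excluding peaks within 1000 or 5000 bp of a control peak gave gaps of 28822 and 39354.5 bp, with 16.0% clustered at 5000 bp, and a counterpart by midpoint gave 22066 bp. Run gaps of 20000 bp gave 13.9% clustered, and genes extended by 2000 bp 49.9% intergenic. No paired analysis was possible because the authors merged replicates before calling peaks, and for the same reason no replicate could be left out. The weakest of the 814 peaks had 30.0 tags per kb. The density needed for a call depends on depth and falls with peak length, and signal under it was not detectable.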

Other observations

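Small RNA genes under knockdown-only peaks were few. The microRNA genes Mir6997 on chromosome 2 and Mir7214 on chromosome 17 lay wholly inside such a peak, the Mir7214 peak being one of the 7 in the run between Lemd2 and Grm4. The small RNA gene Gm24254 on chromosome 8 was also wholly covered, and the transfer RNA gene n-TIaat13, at the end of a Dhx9 peak on chromosome 1, was covered over 53.4% of its length. For the wholly covered genes the rule itself fixes that no base pair is shared with a control peak. The transfer RNA gene shared none either. Peaks of this length are far longer than these genes, so the values describe the place and not the gene.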
